A study of Mus musculus with 10 samples.

Results

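Chromatin accessibility was compared between iNKT1 cells of SKG mice and iNKT1 cells of BALB/c mice, using 4 of the 10 ATAC-seq libraries of the series and all 94823 regions of its count table. The BALB/c iNKT1 group had 2 libraries and the SKG iNKT1 group had 2 libraries. These are called B1, B2, S1 and S2, with the replicate numbers of the labels. The other 6 libraries came from iNKT2 cells, 3 of each genotype, and entered the fit only to share its estimate of the spread and to give the same genotype comparison in another subset. All cells were thymic, and the study's methods describe mice of 8 to 10 weeks. SKG mice are on the BALB/c background and carry a hypomorphic Zap70 mutation in every cell, so the genotype was not restricted to iNKT cells. The iNKT1 cells were sorted as CD27+ and CD122+ and the iNKT2 cells as CD27+ and CD122-. A point mutation changes no accessibility count that could be used to check the genotype, and nothing in the labels says that the replicates came from separate animals. The p-values given therefore measure the spread between these libraries only.

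Invariant natural killer T (iNKT) cells carry a semi-invariant T cell receptor that recognises lipids on CD1d, and they acquire effector programmes while still in the thymus. The iNKT1 subset expresses T-bet and makes interferon gamma, whereas iNKT2 cells express high PLZF and make interleukin 4. Zap70 is the kinase that binds the phosphorylated chains of the T cell receptor complex and passes its signal on, to the calcium and NFAT branch, to the MAP kinase branch that ends in AP-1 and EGR factors, and to NF-kB. In ATAC-seq a transposase cuts and tags accessible DNA, so the number of insertions in a region reports how open promoters and enhancers are. In sorted bulk cells, a region open in fewer cells and a region less open in each cell cannot be told apart.

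The regions below are the strongest calls at the genes around which the comparison was set (Pdcd1, Spry2 and Arpp21) and at the leading loci on which the results turn. They are shown so that the elements behind the values can be read. Each is 300 bases around the centre of the region, on the plus strand of GRCm38 as given by RefSeq, in lower case. That reference is of another mouse strain, so bases and motif matches may differ in the BALB/c background. Capitals mark matches, on either strand, to one of 10 motif strings: NFAT (TGGAAA), EGR (GCGTGGG), AP-1 (TGANTCA), NF-kB (its consensus string), T-box (GGTGTGA), RUNX (TGTGGTT), ETS (CAGGAAGT), TCF (TCAAAG), E-box (CAGCTG) and KLF (GGGCGTG). The Pdcd1 window held 2 NFAT matches, 1 EGR match and 1 TCF match, and the window upstream of Srek1ip1 held 2 NFAT matches and 1 TCF match. The Spry2 window, in a coding exon, held 1 T-box match. The 4 windows that were more open in SKG held an AP-1 and a RUNX match (Arpp21), an AP-1 match (1700017N19Rik), a TCF match (Eef2kmt) and no match (2010109I03Rik).
Pdcd1, lower in SKG, chr1:94053636-94053935: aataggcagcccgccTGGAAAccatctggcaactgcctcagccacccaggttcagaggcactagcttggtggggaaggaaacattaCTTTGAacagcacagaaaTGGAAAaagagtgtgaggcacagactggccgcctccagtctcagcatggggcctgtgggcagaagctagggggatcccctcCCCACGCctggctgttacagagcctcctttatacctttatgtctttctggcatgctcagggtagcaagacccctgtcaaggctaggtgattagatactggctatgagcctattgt
Spry2, lower in SKG, chr14:105892972-105893271: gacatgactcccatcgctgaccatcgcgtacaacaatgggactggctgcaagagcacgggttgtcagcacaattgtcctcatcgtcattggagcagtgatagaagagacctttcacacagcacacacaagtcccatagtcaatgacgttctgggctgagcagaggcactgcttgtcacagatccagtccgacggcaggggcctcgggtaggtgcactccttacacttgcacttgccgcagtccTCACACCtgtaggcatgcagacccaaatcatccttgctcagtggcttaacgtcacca
Srek1ip1 locus, lower in SKG, chr13:104622490-104622789: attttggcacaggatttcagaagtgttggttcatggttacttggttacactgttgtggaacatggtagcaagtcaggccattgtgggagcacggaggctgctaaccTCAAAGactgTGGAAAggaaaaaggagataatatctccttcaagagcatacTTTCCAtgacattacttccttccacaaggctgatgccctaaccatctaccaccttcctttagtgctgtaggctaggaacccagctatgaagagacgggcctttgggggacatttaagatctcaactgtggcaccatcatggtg
Arpp21, higher in SKG, chr9:112225065-112225364: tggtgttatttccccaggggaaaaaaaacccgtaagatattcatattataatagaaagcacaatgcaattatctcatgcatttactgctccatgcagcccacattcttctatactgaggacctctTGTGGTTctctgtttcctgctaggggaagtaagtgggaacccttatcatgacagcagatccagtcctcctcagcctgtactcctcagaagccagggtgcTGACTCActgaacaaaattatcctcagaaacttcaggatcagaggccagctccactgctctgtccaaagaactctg
1700017N19Rik locus, higher in SKG, chr10:100741143-100741442: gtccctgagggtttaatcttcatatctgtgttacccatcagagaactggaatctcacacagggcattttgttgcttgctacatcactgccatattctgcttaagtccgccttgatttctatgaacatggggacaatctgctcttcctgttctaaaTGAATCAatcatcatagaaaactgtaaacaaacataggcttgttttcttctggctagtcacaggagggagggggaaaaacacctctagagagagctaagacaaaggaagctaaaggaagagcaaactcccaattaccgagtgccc
2010109I03Rik locus, higher in SKG, chr15:74933644-74933943: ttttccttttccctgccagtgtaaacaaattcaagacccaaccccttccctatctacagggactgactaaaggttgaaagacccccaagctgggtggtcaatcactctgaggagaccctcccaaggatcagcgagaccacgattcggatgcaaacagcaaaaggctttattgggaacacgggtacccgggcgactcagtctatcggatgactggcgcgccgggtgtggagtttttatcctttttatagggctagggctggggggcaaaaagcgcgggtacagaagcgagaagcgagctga
Eef2kmt locus, higher in SKG, chr16:5393478-5393777: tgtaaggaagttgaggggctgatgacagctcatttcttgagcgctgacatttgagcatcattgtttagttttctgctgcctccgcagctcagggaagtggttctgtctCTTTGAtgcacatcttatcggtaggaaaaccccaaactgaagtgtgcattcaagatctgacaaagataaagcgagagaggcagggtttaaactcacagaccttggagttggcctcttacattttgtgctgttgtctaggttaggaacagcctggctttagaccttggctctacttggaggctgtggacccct

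Insertions in the regions totalled 36342635 (B1), 24735873 (B2), 17214764 (S1) and 17454220 (S2), so the SKG group was the shallower. The median region held 97 and 64 insertions in BALB/c and 41 and 42 in SKG. Log2 levels over all regions correlated at 0.981 between the BALB/c libraries, at 0.969 between the SKG libraries and at 0.947 to 0.953 between libraries of different genotype. Promoter regions of iNKT1 genes were read for the sorted identity. Of 15 such genes 13 had a promoter region, and at 13 of 13 every iNKT1 library lay above every iNKT2 library. All 9 iNKT2 genes had a promoter region, but at only 3 of the 9 did every iNKT2 library lie above every iNKT1 library. For Ifng, which encodes interferon gamma, the promoter held 61.3 and 61.4 CPM in BALB/c iNKT1, 73.8 and 71.4 in SKG iNKT1 and 6.94 to 11.5 over the 6 iNKT2 libraries. CPM are insertions scaled to the TMM-adjusted total of the library. The same order stood at some promoters outside the identity lists. That of Zap70 held 74.5 to 89.3 CPM in iNKT1 and 38.4 to 56.1 in iNKT2. At others the subsets overlapped, as at Satb1 (224 to 252 and 196 to 248 CPM). The share over all promoters was not computed, so these counts do not set identity apart from a general difference at promoters.

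In the edgeR fit more regions were called lower than higher in SKG iNKT1 cells. At an edgeR adjusted p under 0.01 and a change of at least 4-fold, the definition of a called region throughout, 960 regions were called (1.01% of all regions), of which 694 were lower in SKG (0.732%) and 266 higher (0.281%). Without the fold limit, 1344 were lower (1.42%) and 628 higher (0.662%). The study's own count for iNKT1 cells, from voom and limma at the same limits, was smaller than the 960 called here. Its total of accessible regions was also smaller than the 94823 regions tested here, so the counts differ in test and set. The size of the excess of lower calls varied with the test and the normalization. Lower calls made up 73.0% of calls with library totals in edgeR, 67.8% with DESeq2 and 65.7% after removal of the GC trend. Voom without quantile normalization gave 276 lower and 202 higher regions (57.7% lower). Quantile normalization was run with voom, so the test and the scaling changed together there. Under quantile normalization with voom 129 regions were lower and 138 higher, so lower calls made up 48.3% of the calls against 72.3% in edgeR, although 694 of the 694 lower regions and 266 of the 266 higher ones kept their sign. The median log2 change of all regions was -0.03 in edgeR and 0.02 under quantile normalization. Leaving out B1 gave 214 lower and 89 higher regions, omission of B2 gave 357 and 105, of S1 152 and 131, and of S2 235 and 111. Of the original calls, 102 lower and 64 higher regions were called in every one of these 4 omissions.

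**Figure D1:**
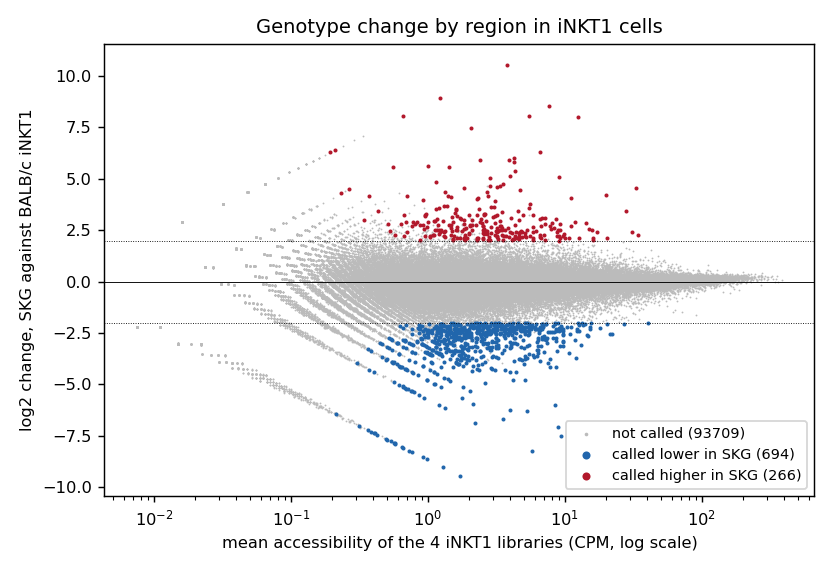
Log2 change from BALB/c to SKG iNKT1 (vertical axis) against the mean level of the 4 iNKT1 libraries (CPM, log scale), 1 point for each region with at least 1 insertion in an iNKT1 library. Blue points are the 694 regions called lower, red points the 266 called higher, and dotted lines mark a 4-fold change. The calls lie below the highest levels, and straight lines of points at low levels are regions with few or 0 insertions in one genotype.

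The called regions lay mostly outside promoters. Of the lower regions 2.88% overlapped a promoter (the annotated start of a protein-coding transcript), 42.7% were intronic and 45.7% intergenic, and of the higher regions 3.76%, 37.6% and 51.5%. Over all regions 13.4% were promoters, 42.8% intronic and 34.7% intergenic. The median distance to a protein-coding start was 32.9 kb for lower and 57.4 kb for higher regions, against 16.3 kb for all regions. A typical lower region fell from a median of 3.58 CPM in BALB/c to 0.514 in SKG (median log2 change -2.74), and a typical higher region rose from 0.610 to 4.57 CPM (2.63). These levels and changes describe the regions that the calls selected. Median GC content was 47.2% in lower, 47.0% in higher and 48.7% in all regions.

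The change in iNKT1 was computed from the iNKT1 libraries, but the iNKT2 libraries shared the estimate of the spread that decided which regions passed, so they were not wholly apart from the selection. With only the 4 iNKT1 libraries in the fit, 1088 regions were lower and 368 higher, and 932 of the 960 calls were among them. In iNKT2 cells 650 of the 694 lower regions (93.7%) also had a change below 0, against 49.1% of all regions, with a median of -1.77, and 292 (42.1%) were called lower there, against 4.73% of all regions. Of the 266 higher regions, 215 (80.8%) had a change above 0 in iNKT2, against 50.9% of all regions, with a median of 0.86, and 45 (16.9%) were called higher, against 0.252%. In the opposite direction edgeR called 0 of either set in iNKT2 and DESeq2 0. Of all regions, edgeR called only 0.252% higher and 4.73% lower there. At an unadjusted p under 0.05, 9 of the lower regions were higher and 19 of the higher regions lower. Among all 94823 regions, 15483 were higher and 20053 lower in iNKT2 at that level. A direct test of the difference between the subsets called 37 of the lower and 52 of the higher regions, against 0.529% of all regions (0.341% with the lower and 0.189% with the higher change in iNKT2). These regions had been chosen for their change in iNKT1, which is a part of the difference. An excess over all regions is therefore partly built in by the choice. The 52 included regions at Tmtc2, Plxna1, Nrp2, Ptprk and Arpp21, described below. Without B1, B2, S1 and S2 in turn, 93, 166, 79 and 90 regions were lower in both subsets and 22, 24, 28 and 26 higher in both.

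At Pdcd1, which encodes the inhibitory receptor PD-1 and is switched on by T cell receptor signals, accessibility fell along the gene and its upstream flank. The gene lies on the minus strand of chromosome 1 (94038305 to 94052553), and 20 regions overlapped it or the 50 kb on either side. Of these, edgeR called 6 lower and 0 higher in SKG iNKT1, with 15 lower and 0 higher at an unadjusted p under 0.05 and 5 and 0 by DESeq2. A further 5 passed the adjusted p of 0.01 below 4-fold, 17 of the 20 had a change below 0, and the median change was -1.51. Summed over the 6 called regions, the BALB/c libraries held 50.7 and 52.6 CPM and the SKG libraries 9.96 and 8.60.

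The strongest Pdcd1 region (chr1:94053616-94053955), whose edge lies 1063 bp upstream of the start, held 7.80 and 9.52 CPM in BALB/c and 0.321 and 0.962 in SKG. The log2 change was -3.74 ± 0.374 (SE, edgeR adjusted p 3.9e-05). A region 2426 bp upstream, called lower, held 6.69 and 5.38 against 1.54 and 0.962 CPM, a change of -2.27 ± 0.360 (edgeR adjusted p 1.5e-03). Farther out, 21976 bp upstream, another called region held 13.8 and 14.5 against 3.98 and 2.95 CPM (-2.03 ± 0.255, edgeR adjusted p 2.6e-04). Between the genotypes these values did not overlap at any of these upstream regions, which the calls themselves select for. The same holds for called regions elsewhere below, and the share of all regions without overlap was not computed. The other 3 called regions were intronic. The one nearest to the start, 1170 bp inside the gene, changed by -3.13 ± 0.438 (edgeR adjusted p 6.1e-04), with 4.87 and 3.00 CPM in BALB/c and 0.707 and 0.192 in SKG. The others, 4158 and 5716 bp inside, changed by -2.46 ± 0.294 and -2.38 ± 0.353 (edgeR adjusted p 1.8e-04 and 9.5e-04).

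The promoter region of Pdcd1 itself (chr1:94052175-94052754) changed less, from 20.8 and 14.9 CPM in BALB/c to 7.52 and 8.79 in SKG (-1.13 ± 0.209, edgeR adjusted p 4.6e-03, below 4-fold). The regions 26565 and 39244 bp upstream had changes of 0.25 ± 0.220 and 0.04 ± 0.216 that passed neither limit (edgeR adjusted p 0.66 and 0.96). In iNKT2 cells 4 regions were called lower (4.73% of all regions were), and 1 of these, the one 1063 bp upstream, was among the 6 called in iNKT1. At the adjusted p alone 12 were lower in iNKT2, which 10.1% of all regions passed in that direction and 4.02% in the other. The edgeR test of the difference between subsets called 0 of the 20 regions and DESeq2 1, with 9 at an unadjusted p under 0.05 and a smallest edgeR adjusted p of 2.1e-02 at the intronic region 1170 bp inside the gene, where the change was -0.71 ± 0.285 in iNKT2. Against the 6 called with all libraries, 3 were called without B1, 5 without B2, 4 without S1, 2 without S2 and 2 under quantile normalization.

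**Figure D2:**
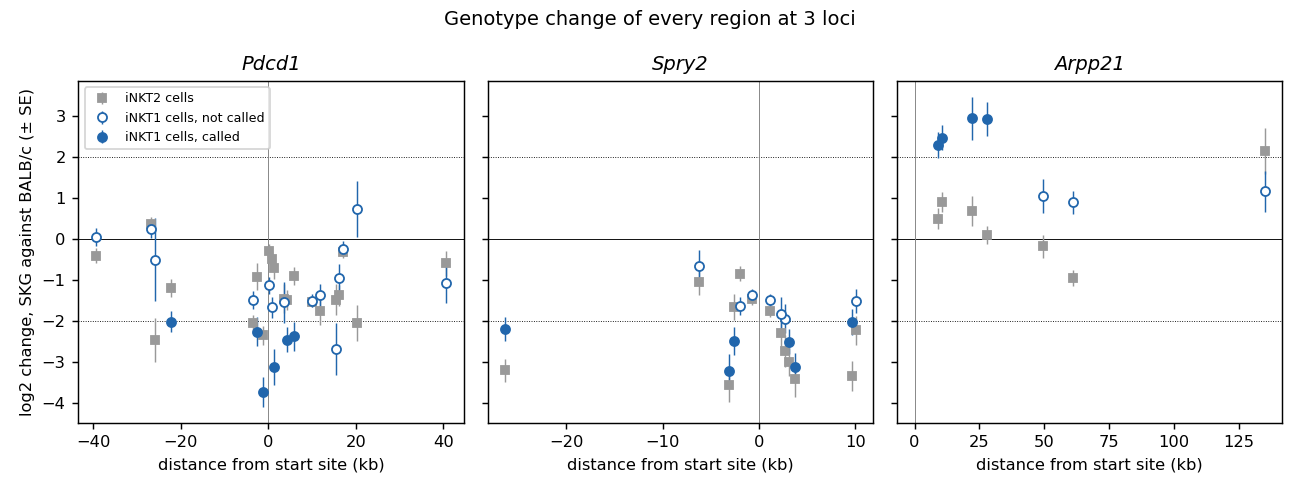
Log2 change from BALB/c to SKG (± SE) of every region at Pdcd1 (20 regions), Spry2 (13) and Arpp21 (7), by the distance of its centre from the gene's start in kb, positive in the direction of transcription. Circles are iNKT1 cells, filled where called, grey squares are iNKT2 cells, and dotted lines mark 4-fold. Changes at Pdcd1 and Spry2 lie mainly below 0 in both subsets, and those at Arpp21 in iNKT1 all lie above 0.

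At Spry2 all 13 regions had a change below 0. Spry2 is a feedback inhibitor of receptor signalling through the MAP kinase cascade and is itself induced by that cascade. The gene lies on the minus strand of chromosome 14 (105891947 to 105896819), and within 50 kb edgeR called 6 of its 13 regions lower and 0 higher in SKG iNKT1 (DESeq2 5 and 0, unadjusted p under 0.05 for 12 and 0), with 11 past the adjusted p of 0.01 and a median change of -1.95. The 6 called regions summed to 71.6 and 82.0 CPM in BALB/c and to 15.9 and 12.3 in SKG.

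The strongest call was in the coding exon (chr14:105892925-105893318), with 9.05 and 13.7 CPM in BALB/c and 1.54 and 1.03 in SKG, a change of -3.14 ± 0.355 (edgeR adjusted p 1.1e-04). A region 2961 bp upstream of the start changed by -3.22 ± 0.411 (edgeR adjusted p 2.9e-04), from 8.12 and 9.96 CPM to 0.899 and 1.03. The most open regions of the gene, beside its start, changed less in log2 terms. The 1807 bp region 285 bp inside the gene went from 100 and 110 CPM to 41.1 and 33.6 (-1.50 ± 0.158, edgeR adjusted p 5.9e-05), and the region 134 bp upstream from 84.6 and 100 to 37.1 and 33.5 (-1.39 ± 0.168, edgeR adjusted p 2.0e-04). Both were below the 4-fold limit although no SKG library reached a BALB/c library. The region 6038 bp upstream held 3.02 and 3.44 CPM against 2.51 and 1.54, a difference of -0.67 ± 0.389 that did not pass (edgeR adjusted p 0.43).

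Beyond the 50 kb window the Spry2 domain went on. Called regions spaced by less than 50 kb formed a locus of 70.1 kb (chr14:105887001-105957124) with 8 called regions among 16. A change below 0 was found in 16 of the 16, which for the 8 called ones was fixed by the choice. Its called regions summed to 101 and 120 CPM in BALB/c iNKT1 and 23.7 and 19.5 in SKG iNKT1. In iNKT2 the same regions summed to 14.4 to 23.0 CPM in BALB/c and 1.96 to 2.44 in SKG, with a median change of -3.39 and 7 of the 8 called. For the difference between subsets edgeR and DESeq2 each called 0 of the 13 regions within 50 kb of Spry2, with 3 at an unadjusted p under 0.05 and a smallest edgeR adjusted p of 0.13. Within that window, 5 regions were called without B1, 5 without B2, 3 without S1, 2 without S2 and 5 under quantile normalization.

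Spry2 is one of 11 MAP kinase feedback genes that were listed together. Of 206 regions at these genes (Sprouty and Spred proteins and the dual-specificity phosphatases, which remove phosphate from MAP kinases), 10 were called lower (4.85%, against 0.732% of all regions) and 0 higher, with 63 lower and 5 higher at an unadjusted p under 0.05 and 11 lower and 0 higher by DESeq2. The median change of the 206 was -0.35. Of the 10, 6 were at Spry2, around which the comparison was set, so the share of the list rests mainly on that gene. Of the rest, 2 regions lay at Dusp1, 1 at Dusp6 and 1 at Spred2. The Dusp6 region, 23826 bp from its start, held 3.76 and 2.73 CPM in BALB/c and 0.578 and 0.385 in SKG (-2.75 ± 0.412, edgeR adjusted p 1.0e-03). The intronic Spred2 region held 10.5 and 11.6 CPM against 1.67 and 2.69 (-2.33 ± 0.283, edgeR adjusted p 2.0e-04). A region that the annotation places in an intron of Dusp1 held 18.8 and 22.0 against 4.95 and 4.49 CPM (-2.11 ± 0.390, edgeR adjusted p 4.6e-03). In each of these the SKG libraries lay below the BALB/c libraries, which the calls select for. The list had 6, 7, 3 and 3 lower regions without B1, B2, S1 and S2 in turn, of which 5, 5, 3 and 2 were at Spry2. Dusp1 had 0 calls in each omission, Dusp6 had 1 without B2 and 0 in the others, and Spred2 had 1 except without S1.

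Arpp21 moved in the opposite direction. It encodes an RNA-binding phosphoprotein known from neurons and from immature thymocytes. The gene lies on the minus strand of chromosome 9 (112065091 to 112235938), all its 7 regions were intronic, and 4 were called higher and 0 lower in SKG iNKT1. All 7 had a change above 0 and an unadjusted p under 0.05, with 0 lower at that level and 0 lower by DESeq2. The 4 called regions lay 9028 to 27755 bp inside the gene, next to each other, and summed to 2.63 and 3.31 CPM in BALB/c and 18.1 and 15.1 in SKG.

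The strongest Arpp21 region (chr9:112225045-112225384) held 1.31 and 1.63 CPM in BALB/c iNKT1 and 8.67 and 7.51 in SKG iNKT1, a change of 2.47 ± 0.310 (edgeR adjusted p 2.6e-04). Its neighbour 9028 bp from the start rose from 0.956 and 1.15 CPM to 5.40 and 4.81 (2.29 ± 0.314, edgeR adjusted p 5.1e-04). The region 27755 bp inside rose from 0.179 and 0.176 to 1.48 and 1.28 CPM (2.92 ± 0.422, edgeR adjusted p 7.6e-04). That last region held 3.31 ± 0.398 CPM in BALB/c iNKT2 and 3.47 ± 0.494 in SKG iNKT2 (SD, n = 3 each), a change of 0.08 ± 0.214. There the difference between the subsets was itself called (-2.84 ± 0.477, edgeR adjusted p 5.0e-03). In iNKT2 edgeR called 0 of the 7 regions, with 1 lower and 2 higher at an unadjusted p under 0.05, and DESeq2 called 0 lower and 1 higher. The 4 regions called in iNKT1 all had a change above 0 there, with a median of 0.58. A region 60572 bp inside had a change of 0.88 ± 0.270 in iNKT1 (edgeR adjusted p 7.6e-02) and of -0.96 ± 0.191 in iNKT2 (edgeR adjusted p 1.8e-03, below 4-fold). Over all 7 regions, SKG iNKT1 libraries summed to 29.2 and 24.0 CPM, BALB/c iNKT1 to 7.20 and 8.86, BALB/c iNKT2 to 28.04 to 33.5 and SKG iNKT2 to 19.96 to 26.95. The number of calls at Arpp21 was 0 without B1, 2 without B2, 1 without S1, 3 without S2 and 2 under quantile normalization.

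Arpp21 was also on a list of 8 genes that mark double-positive thymocytes, the precursors of iNKT cells and the most abundant cells of the thymus. Of 47 regions at these genes 4 were called higher (8.51%, against 0.281% of all regions), and all 4 were at Arpp21. The regions whose nearest start belonged to a gene of the list summed to 253 and 275 CPM in BALB/c iNKT1 and 326 and 335 in SKG iNKT1, most of it from the Rmnd5a promoter (213 and 235 CPM in BALB/c, 254 and 259 in SKG). Regions nearest to Rag1, which with Rag2 cuts receptor genes for rearrangement, held 0.0597 and 0.176 CPM in BALB/c and 0 in both SKG libraries. Those nearest to Rag2 held 2.60 and 2.91 against 2.89 and 3.53 CPM, and no region lay nearest to Ptcra. Of the genes for the chains of the CD8 co-receptor, regions nearest to Cd8a held 1.31 and 1.98 against 2.96 and 1.80 CPM, and those nearest to Cd8b1 held 0.478 and 1.67 CPM in BALB/c and 4.30 and 15.4 in SKG. Both SKG libraries were above both BALB/c libraries at Cd8b1, S2 the most, although none of its 6 regions passed (smallest edgeR adjusted p 0.067). Regions nearest to Dntt, the gene of terminal transferase, held 28.8 and 24.5 against 32.8 and 31.0 CPM, and 1 of its 12 regions was higher at the adjusted p of 0.01 but below 4-fold. The part of thymocyte chromatin in the Arpp21 values was not tested.

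**Figure D3:**
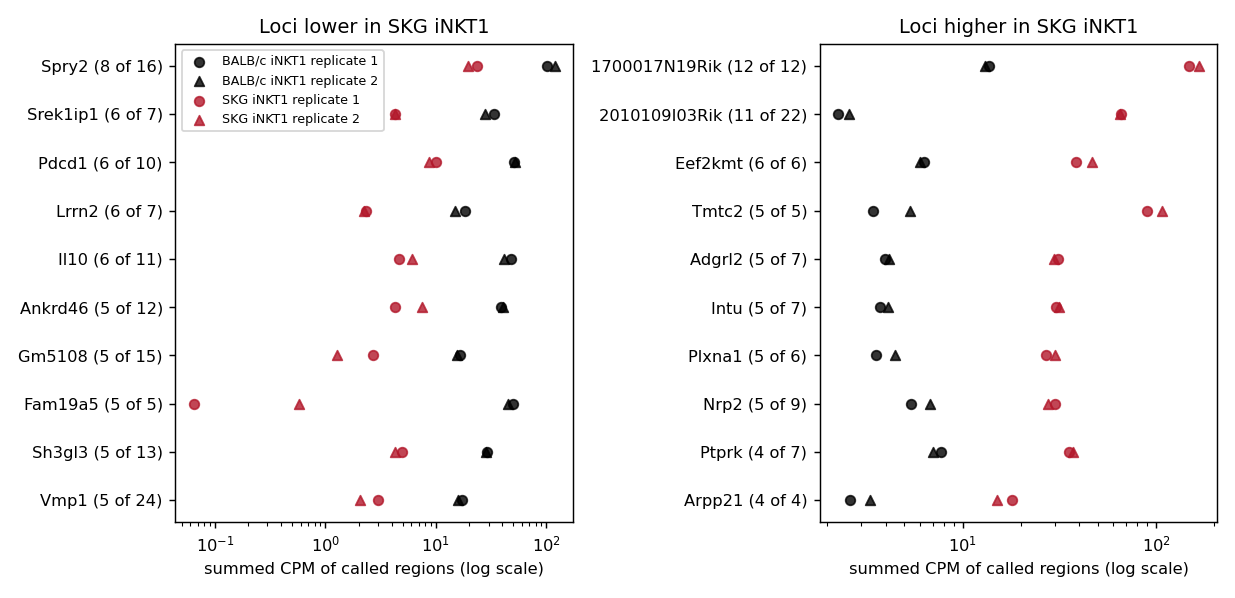
Summed level (CPM, log scale) of the called regions of the 10 leading loci in each direction, 1 point for each iNKT1 library. Black marks BALB/c, red marks SKG, circles mark replicate 1, triangles mark replicate 2, and the numbers beside each locus give the called regions among all regions of its span. At all 20 loci both SKG libraries lie on one side of both BALB/c libraries, which the calls themselves select for.

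Regions that moved together with their neighbours were collected as loci of 3 or more calls in one direction, each within 50 kb of the next. There were 31 lower loci, holding 125 of the 694 lower regions (18.01%), and 18 higher loci, holding 87 of the 266 higher regions (32.7%). Within the spans of the lower loci 245 of 256 regions had a change below 0, called or not, and within the higher loci 112 of 113 had one above 0. The sign of the 125 and 87 called regions among these was fixed by the choice. The same holds for called regions in such counts at single genes and loci. The share of all regions with each sign in iNKT1 was not computed. The spans ran from 1.27 to 102 kb in lower and from 1.075 to 178 kb in higher loci. In iNKT2, 31 of the 31 lower loci had a negative median change over the same regions and 23 held a call, while 15 of the 18 higher loci had a positive median and 7 held a call. At least 1 call stood in 23 lower and 14 higher loci whichever iNKT1 library was left out, and at least 3 calls stood in 2 lower and 5 higher loci. The number of loci itself was 7 lower and 7 higher without B1, 12 and 8 without B2, 4 and 6 without S1, and 5 and 8 without S2.

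After Spry2, 4 lower loci had 6 calls each, at Srek1ip1, Pdcd1, Lrrn2 and Il10. The first was an intergenic cluster on chromosome 13 (104614993 to 104622857), 169627 to 177179 bp upstream of Srek1ip1, which encodes a small protein that binds a splicing factor. In 7.87 kb, 6 of 7 regions were called. They summed to 33.8 and 27.99 CPM in BALB/c and to 4.30 in each SKG library. Its lead region held 13.4 and 8.55 CPM against 0.899 and 0.834, a change of -3.66 ± 0.332 (edgeR adjusted p 1.8e-05). In iNKT2, where the cluster was more open (50.8 to 59.3 CPM in BALB/c), the SKG libraries held 8.91 to 12.2 CPM, and 5 of the 6 regions were called. It kept 3 called regions whichever iNKT1 library was omitted, and 3 under quantile normalization.

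Il10, the gene of the anti-inflammatory cytokine interleukin 10, had 6 called regions of 11 in a 56.9 kb span (chr1:130996306-131053166), and 11 of the 11 had a change below 0. Their sum fell from 47.6 and 41.1 CPM in BALB/c to 4.69 and 6.03 in SKG. The region overlapping an Il10 exon, 2685 bp inside the gene, fell from 25.2 and 21.5 to 2.70 and 2.76 CPM (-3.10 ± 0.404, edgeR adjusted p 3.5e-04). Farther downstream, regions 31500 and 33012 bp from the start changed by -2.99 ± 0.481 and -3.28 ± 0.546 (edgeR adjusted p 1.7e-03 and 2.1e-03). Upstream, the region 8903 bp away fell from 7.74 and 7.19 to 0.707 and 1.54 CPM and was called lower in iNKT2 too. No SKG library reached a BALB/c library at any of the regions named, which the calls select for. The Il10 calls were sensitive to the libraries, with 0 regions called without B1, 3 without B2, 0 without S1, 1 without S2 and 2 under quantile normalization. Their number was 6 with DESeq2 and 5 after removal of the GC trend.

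Of the 10 leading lower loci, the largest median fold loss was on chromosome 15 (87073801 to 87122668), in an intergenic stretch 421631 to 469878 bp upstream of Fam19a5, a gene for a secreted chemokine-like protein. All 5 regions of the 48.9 kb were called, with a median change of -7.05. Together they held 50.3 and 45.2 CPM in BALB/c iNKT1 and 0.0642 and 0.577 in SKG iNKT1. The lead region held 19.3 and 17.6 CPM against 0 and 0.192, a change of -7.51 ± 0.719 (edgeR adjusted p 2.9e-05). In iNKT2 the 5 regions summed to 17.8 to 26.0 CPM in BALB/c and 0.0297 to 2.62 in SKG, with 4 called, so both SKG subsets were near 0. The number of calls was 3 without B1 or B2, 2 without S1 or S2, and 2 under quantile normalization.

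Lrrn2, a gene for a leucine-rich repeat membrane protein, had 6 of 7 regions called in a 23.6 kb span at its promoter and in its introns (chr1:132880271-132903835). Their sum fell from 18.5 and 14.8 CPM to 2.31 and 2.25. None was called in iNKT2 (median change -0.92). Omission of B1, B2, S1 and S2 in turn gave 2, 3, 1 and 2 calls, and quantile normalization gave 0. At Sh3gl3, which encodes an endophilin of membrane trafficking, 5 of 13 regions were called and 13 of 13 had a change below 0, with sums of 28.9 and 28.3 CPM in BALB/c and 4.95 and 4.23 in SKG. It had 3, 2, 2 and 2 calls in the same omissions and 1 under quantile normalization.

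Vmp1, a gene of autophagosome formation, had 5 called regions among 24 (chr11:86573533-86653067), a span that also holds the microRNA gene Mir21a (chr11:86584067-86584158). The 5 summed to 17.4 and 16.0 CPM in BALB/c and 3.02 and 2.05 in SKG, and the median change over all 24 was -0.70. Omission of the libraries in the same order gave 1, 2, 0 and 1 calls there and quantile normalization 0. The intergenic Ankrd46 locus, between the ankyrin repeat gene of that name and Rnf19a, had 5 called regions of 12, all 12 with a change below 0, with sums of 39.2 and 40.2 CPM in BALB/c and 4.30 and 7.44 in SKG. Its lead region, 100205 bp from the Ankrd46 start, changed by -2.63 ± 0.230 in iNKT1 (edgeR adjusted p 1.3e-05), against -0.78 ± 0.160 in iNKT2, and the omissions gave 1, 2, 1 and 2 calls. The locus named for the predicted gene Gm5108 had 5 called regions of 15 and sums of 16.7 and 15.6 CPM in BALB/c iNKT1 against 2.70 and 1.28 in SKG iNKT1. In iNKT2 its called regions held 62.9 to 67.5 CPM in BALB/c and 15.2 to 15.6 in SKG, and the omissions gave 1, 1, 2 and 1 calls.

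Among higher loci, the widest was an intergenic domain of 178 kb on chromosome 10 (100634200 to 100811982), whose nearest protein-coding start is that of the uncharacterised gene 1700017N19Rik. All 12 regions in it were called higher. They summed to 13.6 and 13.1 CPM in BALB/c iNKT1 and to 147 and 167 in SKG iNKT1. Its lead region (chr10:100740973-100741611) rose from 0.269 and 0.838 to 16.4 and 18.7 CPM, a change of 5.08 ± 0.343 (edgeR adjusted p 3.5e-06). That element also rose in iNKT2, from 0.624 ± 0.151 to 17.9 ± 1.22 CPM (SD, n = 3 each), by 4.81 ± 0.266, and was the only one of the 12 called there. Elsewhere in the domain the subsets differed. A region at chr10:100695944-100696335 rose from 0.657 and 0.838 to 10.2 and 10.3 CPM in iNKT1 (3.79 ± 0.299, edgeR adjusted p 6.4e-06) and changed by 0.92 ± 0.213 in iNKT2, and the difference was called (-2.87 ± 0.366, edgeR adjusted p 1.0e-03). Without B1, B2, S1 and S2 in turn 8, 9, 10 and 8 of the 12 were called, and 11 under quantile normalization.

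Farther along the same chromosome, Tmtc2, a gene for an endoplasmic reticulum protein that adds mannose to cadherins, opened at its promoter. All 5 regions of the span (chr10:105556585-105575646) were called, with sums of 3.43 and 5.33 CPM in BALB/c iNKT1 and 89.6 and 107 in SKG iNKT1. The promoter region (chr10:105573298-105574935) rose from 2.12 and 3.48 to 57.6 and 69.9 CPM, by 4.54 ± 0.294 (edgeR adjusted p 3.5e-06). In BALB/c iNKT2 it was already at 20.3 ± 5.56 CPM and reached 57.9 ± 11.04 in SKG iNKT2 (SD, n = 3 each), a smaller change of 1.51 ± 0.201. That difference between subsets was called (-3.02 ± 0.343, edgeR adjusted p 5.4e-04). The SKG levels were close in the subsets, whereas the BALB/c levels were apart. An intronic region 17411 bp inside rose from 0 and 0.176 to 4.82 and 4.62 CPM, with a like change in iNKT2 (5.93 ± 0.614 and 5.67 ± 0.473). In every omission 4 of the 5 regions were called, as under quantile normalization.

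On chromosome 15 (74896347 to 74963102), 11 of 22 regions were called higher in a 66.8 kb span between 2010109I03Rik and Ly6e, the latter a gene of the Ly6 family of small GPI-anchored surface proteins. Their sum rose from 2.27 and 2.60 CPM in BALB/c to 65.9 and 64.9 in SKG. The lead region (chr15:74933557-74934029, 21022 bp upstream of Ly6e) rose from 0.149 and 0.0882 to 8.22 and 7.19 CPM, by 5.90 ± 0.409 (edgeR adjusted p 3.5e-06). A region 7529 bp downstream of the start of Ly6e (chr15:74962580-74963102) rose from 0 and 0.0882 to 11.4 and 10.3 CPM (8.05 ± 0.735, edgeR adjusted p 1.9e-05), more than in iNKT2 (2.95 ± 0.336) in the test of the difference (-5.10 ± 0.961, edgeR adjusted p 9.1e-03). In iNKT2 10 of the 11 were called higher, with sums of 7.25 to 8.86 CPM in BALB/c and 54.6 to 102 in SKG. The locus had 6, 7, 7 and 8 calls without B1, B2, S1 and S2, and 5 under quantile normalization.

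**Figure D4:**
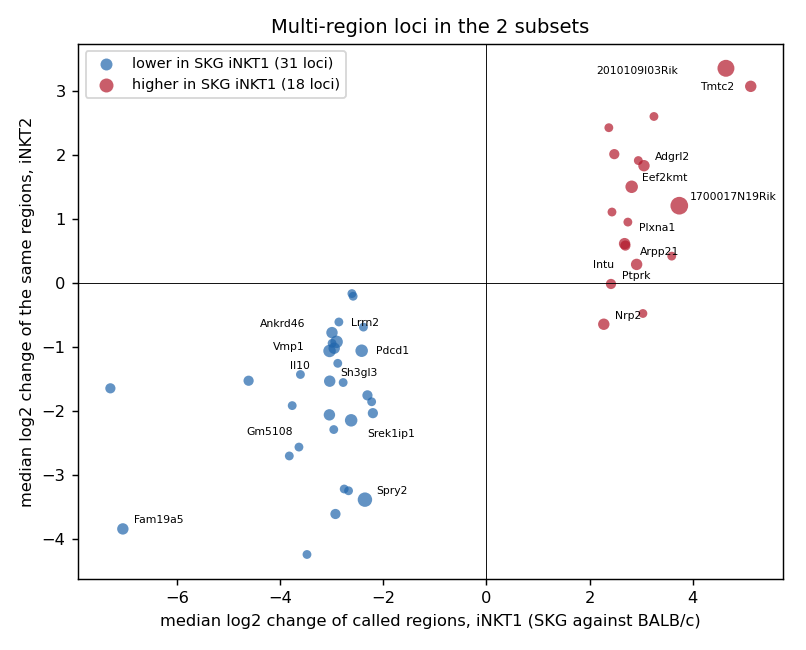
Median genotype change (log2, SKG against BALB/c) of the called regions at each of the 49 loci in iNKT1 (horizontal axis) and over the same regions in iNKT2 (vertical axis), with marker area proportional to the number of called regions. All 31 lower loci (blue) lie below 0 in iNKT2, and 15 of the 18 higher loci (red) lie above 0, while Nrp2 and Ptprk are among the 3 that lie below it.

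Nrp2 encodes neuropilin 2, a co-receptor of semaphorins and vascular growth factors. From just upstream of its start into its introns (chr1:62702623-62760514) 5 of 9 regions were called higher, all 9 had a change above 0, and the sum rose from 5.41 and 6.79 CPM to 29.9 and 27.5. In iNKT2 all 5 had a change below 0 (median -0.65, 16.6 to 27.6 CPM in BALB/c and 13.7 to 16.3 in SKG), and 4 of the 5 differed between subsets in the direct test. Its lead region rose by 2.00 ± 0.265 in iNKT1 (edgeR adjusted p 3.9e-04), just past 4-fold, against -0.65 ± 0.201 in iNKT2. Calls at Nrp2 numbered 0 without B1, 1 without each of B2, S1 and S2, and 2 under quantile normalization. Plxna1 encodes plexin A1, a signalling receptor for semaphorins. An intergenic cluster 74069 to 107749 bp from its start (chr6:89254466-89288551) had 5 of 6 regions called, with sums of 3.55 and 4.45 CPM in BALB/c and 26.98 and 29.96 in SKG. Its lead region, 96950 bp from the start, held 0.239 and 0.353 against 4.05 and 6.35 CPM (4.15 ± 0.521, edgeR adjusted p 2.6e-04), whereas the change in iNKT2 was 0.25 ± 0.379. The Plxna1 calls numbered 0, 1, 2 and 2 in the omissions and 3 under quantile normalization.

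Ptprk, a receptor tyrosine phosphatase expressed in thymocytes, lies next to Themis, a gene required for T cell receptor signalling in thymocytes. In Ptprk (chr10:28513618-28568335) 4 of 7 regions were called higher and all 7 had a change above 0, with sums of 7.77 and 7.05 CPM in BALB/c iNKT1 and 35.5 and 37.0 in SKG iNKT1. The nearest protein-coding start to each of the 4 was that of Themis, 100025 to 154340 bp away. The lead region held 1.55 and 1.54 CPM in BALB/c iNKT1 and 8.22 and 8.15 in SKG iNKT1 (2.40 ± 0.228, edgeR adjusted p 2.7e-05). In iNKT2 it stood at 22.2 CPM in BALB/c and 18.9 in SKG, and the difference between subsets was called (-2.63 ± 0.273, edgeR adjusted p 3.9e-04). Leaving out the iNKT1 libraries in turn gave 2, 2, 2 and 3 calls, and quantile normalization gave 2.

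The remaining named higher loci were Eef2kmt, Adgrl2 and Intu. The cluster 112783 to 137426 bp upstream of Eef2kmt, a gene for a methyltransferase of an elongation factor, had 6 of 6 regions called and rose from 6.33 and 6.04 to 38.5 and 46.8 CPM in sum. At Adgrl2, which encodes the adhesion receptor latrophilin 2, 5 of 7 regions were called, with sums of 3.97 and 4.19 CPM in BALB/c and 31.0 and 29.8 in SKG. A cluster 532305 to 556723 bp upstream of Intu, a gene of planar cell polarity, had 5 of 7 regions called, with sums of 3.73 and 4.10 CPM in BALB/c iNKT1, 30.5 and 31.4 in SKG iNKT1 and 25.1 to 34.6 in BALB/c iNKT2. The lead regions of Eef2kmt, Adgrl2 and Intu were called in every omission, while the counts were 3, 4, 5 and 4 at Eef2kmt and 2, 3, 2 and 2 at both Adgrl2 and Intu.

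Calls of both directions lay on every chromosome, and 18.01% of the lower and 32.7% of the higher calls were in multi-region loci. The windows named here were picked from these same calls, as among those with most calls. In windows of 10 Mb, chromosome 14 from 100 to 110 Mb held 23 lower and 0 higher calls among 233 regions (9.87% lower), the window of Spry2. Chromosome 10 from 100 to 110 Mb held 17 higher and 0 lower calls among 73 regions (23.3%), all of which are at the 1700017N19Rik and Tmtc2 loci. Chromosome 15 from 70 to 80 Mb held 16 higher and 7 lower calls among 725 regions (2.21% and 0.966%). By chromosome, the share of lower calls ran from 0.315% on chromosome 19 to 1.37% on chromosome 14, and that of higher calls from 0.0350% on chromosome 19 to 0.693% on chromosome 10.

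The smallest adjusted p-values among lower regions belonged to a pair of neighbours on chromosome 11, 41239 and 36920 bp from the start of Aipl1. The first (chr11:71995924-71996270) held 12.8 and 9.92 CPM in BALB/c and 0 and 0.0642 in SKG (edgeR adjusted p 4.2e-06), and the second (chr11:72000247-72000589) held 8.48 and 7.76 against 0.257 and 0.321 (edgeR adjusted p 4.7e-06). Both were near 0 in SKG iNKT2 as well and were called there. A region 211250 bp upstream of Amigo2 held 32.8 and 32.9 CPM in BALB/c and 7.84 and 7.83 in SKG, and it changed by -2.07 ± 0.154, against -0.55 ± 0.114 in the iNKT2 libraries. A region 456158 bp from Rnf144a fell from 38.1 and 36.9 to 6.04 and 6.61 CPM in iNKT1 (-2.57 ± 0.202), against -0.30 ± 0.145 in iNKT2, and the difference between subsets was called (2.27 ± 0.247, edgeR adjusted p 4.9e-04). Near Mbd2 an intergenic region on chromosome 18 fell from 14.5 and 13.8 to 0.514 and 1.28 CPM (edgeR adjusted p 6.4e-06). Of the higher regions, one in an intron of Pde4b, a phosphodiesterase that degrades cyclic AMP (chr4:102516947-102517685), rose from 0 and 0.220 to 24.7 and 25.1 CPM (8.03 ± 0.481, edgeR adjusted p 3.5e-06). In iNKT2 it was at 0 in all 3 BALB/c libraries and at 8.04 to 8.83 CPM in SKG.

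Some regions had 0 insertions in every library of one genotype. Of 1111 regions at 0 in both SKG iNKT1 libraries 21 were called lower, and 21 of 21 also had a change below 0 in iNKT2, where 14 were called. Of 527 regions at 0 in both BALB/c iNKT1 libraries 5 were called higher, 3 of which were at 0 in BALB/c iNKT2 too and called there. With a floor of 3 insertions over the group, which covers counting error only, an intronic region of Sgip1 (chr4:102787647-102787946) was at least 19.1-fold lower in SKG, from 2.27 and 1.41 CPM, and an intronic region of Gm1043 (chr5:37164955-37165290) at least 15.9-fold lower, from 1.88 and 1.19 CPM. The first lost its call in all 4 omissions, and the second kept it only without B2. A region 20316 bp from the start of Ly6g (chr15:75175556-75175855) was at least 24.6-fold higher, at 1.22 and 1.41 CPM, and lost its call in all 4 omissions.

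Among other genes that respond to T cell receptor signals, the calls were at Tox and near Cd5. At Egr1, Egr2, Egr3, Nr4a1, Nr4a2, Nr4a3, Nfatc1, Irf4 and Cd69 edgeR called 0 regions. Of these, Egr1, Nr4a2 and Irf4 each had 1 region lower at the adjusted p of 0.01 but below 4-fold. The windows of Cd5 and Cd6, which overlap, each had 4 regions lower at that adjusted p, called ones included. Their median changes were -0.69 and -0.85. Among 14 such genes, including the Egr and Nr4a factors, 4 of 365 regions were called lower (1.10%, against 0.732% of all regions) and 0 higher, with 111 lower and 13 higher at an unadjusted p under 0.05 and 6 lower and 1 higher by DESeq2. The share of all regions at that unadjusted p in iNKT1 was not computed, for this list or the others. The median change of the list was -0.30, against -0.03 over all regions. The calls were 3 intronic regions of Tox, a factor of T cell development, and 1 region between Cd5 and Cd6. The strongest at Tox held 7.23 and 5.25 CPM in BALB/c and 1.61 and 1.41 in SKG (-2.05 ± 0.269, edgeR adjusted p 3.6e-04). The region 32907 bp upstream of Cd5, a surface protein whose level follows receptor signal strength, held 3.32 and 4.23 against 0.771 and 0.834 CPM (-2.22 ± 0.399, edgeR adjusted p 3.8e-03) and changed by 0.04 in iNKT2. The list had 0 lower regions without B1, S1 or S2 and 1 without B2, and 0 under quantile normalization.

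Of 220 regions at 10 inhibitory and costimulatory receptor genes, 7 were called lower (3.18%, against 0.732% of all regions) and 0 higher, with 52 and 3 at an unadjusted p under 0.05 and 6 and 0 by DESeq2. Omission of B1, B2, S1 and S2 gave 3, 6, 4 and 2 lower regions. Of the 7, 6 were at Pdcd1, around which the comparison was set, so the share of the list rests on that gene. The remaining call was the promoter of Lag3, an inhibitory receptor for MHC class II, at 2.36 and 1.54 CPM in BALB/c and 0.385 and 0.192 in SKG (-2.75 ± 0.426, edgeR adjusted p 1.3e-03). In the Notch list (8 genes, 116 regions) 1 region was called lower (0.862%, against 0.732% of all regions), 10933 bp upstream of Ovol2, a zinc finger repressor. It held 6.33 and 4.58 CPM against 0.257 and 0.321 (-4.22 ± 0.398, edgeR adjusted p 2.5e-05) and was called in all 4 omissions. Assigning regions by nearest start instead gave that list 7 lower regions of 118. At NF-kB and TNF receptor genes 1 of 180 regions was lower (0.556%, against 0.732% of all regions). It lay in a Camta1 intron within 50 kb of the costimulatory receptor gene Tnfrsf9. There the BALB/c libraries held 3.49 and 4.54 CPM and the SKG libraries 0.514 and 0.257 (-3.36 ± 0.632, edgeR adjusted p 5.2e-03). That list had 3 lower regions without B1 and 0 in the other omissions.

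Proximal signalling genes showed 1 lower and 1 higher call among 412 regions (0.243% each, against 0.732% and 0.281% of all regions). The lower one was in a Bcl2l15 intron, 8711 bp upstream of the start of Ptpn22, a phosphatase that restrains receptor signals, at 8.15 and 8.20 against 1.09 and 2.95 CPM (-2.01 ± 0.388, edgeR adjusted p 6.1e-03). The higher one was in an exon of Plcg1, the phospholipase downstream of Zap70, which rose from 0.418 and 0.309 to 1.61 and 1.80 CPM (2.18 ± 0.431, edgeR adjusted p 7.1e-03). The list had 1 lower region without S2 and 0 calls in the other omissions. Among lineage and maturation factors (10 genes, 368 regions) 4 were lower (1.09%, against 0.732% of all regions) and 1 higher (0.272%, against 0.281%). The lower ones lay upstream of Id3, an inhibitor of E proteins, and upstream of Myb. The Myb region 25752 bp upstream held 4.87 and 4.01 CPM against 1.09 and 0.770 (-2.25 ± 0.293, edgeR adjusted p 3.4e-04). The higher one was in an intron of Runx1, with 0.538 and 0.529 against 2.76 and 3.72 CPM (2.59 ± 0.423, edgeR adjusted p 1.9e-03). Omissions left 2, 1, 1 and 1 lower and 0 higher regions in that list. Of the egress and homing genes, S1pr1 had 3 regions higher at the adjusted p of 0.01 but below 4-fold, and Il7r had 1 lower. The Klf2 promoter held 86.9 and 90.3 CPM in BALB/c and 137 and 126 in SKG. No region at Klf2 passed (smallest edgeR adjusted p 5.1e-02). Over the whole list (9 genes, 228 regions) edgeR called 0 regions. At an unadjusted p under 0.05, 15 were lower and 40 higher, and DESeq2 called 0 lower and 1 higher. Without S2 edgeR called 1 lower region there.

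At subset identity genes the calls were compared with the shares over all regions, 0.732% lower and 0.281% higher. At iNKT1 genes 1 of 318 regions was lower (0.314%) and 0 higher (DESeq2 1 and 0, unadjusted p under 0.05 for 30 and 13), and the lower one was an intron of Iglon5 within 50 kb of Nkg7, which was called in none of the 4 omissions. Of 333 regions at iNKT2 genes 4 were lower (1.20%) and 1 higher (0.300%). A pair of the lower ones were at Izumo1r, a folate receptor family gene. The first, in the gene, held 18.6 and 13.8 CPM against 3.47 and 2.76 (-2.38 ± 0.367, edgeR adjusted p 1.2e-03), and the second, 496 bp upstream, 11.02 and 12.3 against 2.83 and 2.76 (-2.06 ± 0.284, edgeR adjusted p 5.3e-04). An intron of Zbtb16, which encodes PLZF, held 8.54 and 7.19 against 1.61 and 1.48 CPM (-2.35 ± 0.256, edgeR adjusted p 7.5e-05), 1 called region of 124 at that gene. Another lower region was in an intron of Glb1 within 50 kb of Ccr4. The higher one, in the window of Il6ra, the interleukin 6 receptor gene, rose from 0.926 and 0.529 to 5.01 and 5.77 CPM (2.83 ± 0.283, edgeR adjusted p 3.9e-05). The list had 2, 3, 1 and 1 lower regions and 1 higher region in the omissions.

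Genes of other cells that the sort could hold were read in the same way. At iNKT17 genes 3 of 109 regions were higher (2.75%, against 0.281% of all regions) and 0 lower (DESeq2 3 and 0, unadjusted p under 0.05 for 10 and 4). These included a region shared by Il17a and Il17f and an intron of Sdc1. None of the omissions gave a call at these genes. Promoters of Il17a, Il17f, Il23r and Ccr6 stayed at or below 0.321 CPM in all 4 iNKT1 libraries, and regions nearest to the 7 iNKT17 genes summed to 123 and 136 CPM in BALB/c and 150 to 167 in SKG. B cell genes (70 regions) had 0 calls in edgeR and DESeq2, with 13 lower and 3 higher at an unadjusted p under 0.05, and sums of 72.8 to 75.0 CPM in BALB/c and 55.0 to 63.2 in SKG. Myeloid genes had 1 lower of 92 regions (1.09%, against 0.732% of all regions), in the window of Cd14 (1 lower without B2 or S2, 0 without B1 or S1). Thymic epithelial genes had 0 of 53 in both tools, with 3 lower and 1 higher at an unadjusted p under 0.05. Their sums were 86.3 to 99.97 and 44.9 to 45.5 CPM in BALB/c and 97.5 to 99.0 and 35.8 to 40.3 CPM in SKG. What part other cells had in the genotype change was not tested.

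Motif strings set the lower and higher regions apart. NFAT letters stood in 41.6% of lower regions and 15.4% of higher regions, against 23.4% of all regions, each read over 300 bases around the centre. AP-1 letters stood in 26.2% of lower and 7.52% of higher regions, against 10.6%. EGR letters stood in 6.196%, 1.88% and 3.68%, and NF-kB letters in 1.59% (11 regions), 0% (0 of 266) and 0.639%. T-box letters were in 9.94% of lower, 6.39% of higher and 5.48% of all regions.

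RUNX letters were in 26.3% of higher regions and 14.7% of lower regions, against 13.2% of all. ETS (7.49%, 7.89% and 8.47%), E-box (17.9%, 18.8% and 17.4%), TCF (25.5%, 20.7% and 21.5%) and KLF (3.03%, 3.38% and 4.75%) differed less between lower, higher and all regions. Without promoters, NFAT letters stood in 42.1% of 674 lower regions, 16.0% of 256 higher regions and 24.98% of 82071 regions in all, and RUNX letters in 15.1%, 26.95% and 14.7%. These shares are descriptions of letters in fixed windows. They carry no test, the strings can overlap each other, and base composition was not matched between the sets. The printed windows showed the same range, from 2 NFAT matches at Pdcd1 and at the Srek1ip1 locus to none of the 10 strings at the 2010109I03Rik locus.

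**Figure D5:**
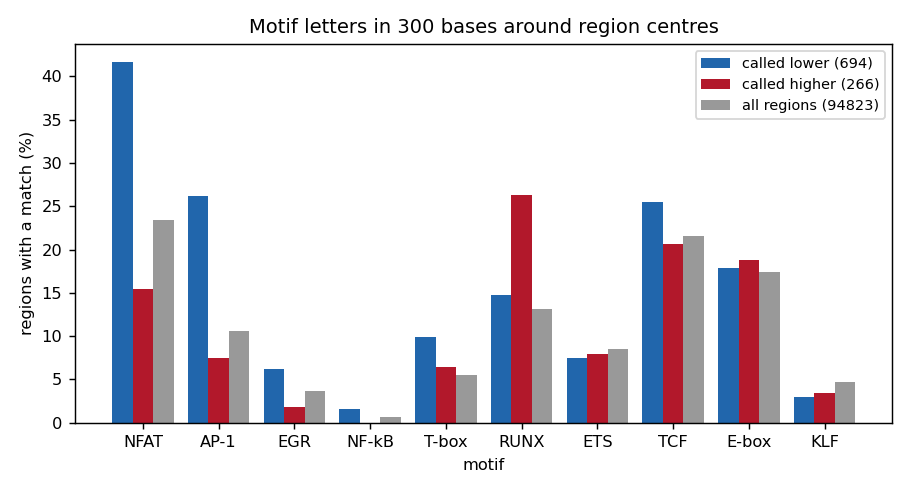
Share of regions (%) whose central 300 bases hold each motif string on either strand, for the 694 regions called lower (blue), the 266 called higher (red) and all 94823 regions (grey). The NFAT and AP-1 bars are tallest for lower regions, 41.6% and 26.2%, and the RUNX bar is tallest for higher regions, 26.3%.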

How the data were processed

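The deposited table holds counts, transposase insertions per region and library, which the authors made, by the study's methods and the submitters' processing notes, with Trim Galore, Bowtie 1.0, Picard and MACS2 on mm10 (GRCm38), merging regions around peak summits of all replicates into 1 set. Its values were whole numbers with unequal totals (14988590 to 36342635), so they were treated as raw counts, although the deposited table is named as normalized counts. Whether a scaling was applied before deposit was not tested. Regions span 300 to 7709 bp (median 343), no column was left unassigned, and floors cover counting error only. Totals are insertions in regions, not full depth.

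All 94823 regions of 10 libraries were fitted in edgeR 4.0.16 (R 4.3.3) with TMM factors and 1 mean per group. Quasi-likelihood F tests compared SKG with BALB/c in iNKT1, in iNKT2, and the difference of these changes, with Benjamini-Hochberg adjustment over all regions. The study's limits (adjusted p 0.01 and 4-fold) were kept. The SE of a log2 change was its size divided by the square root of F. Features came from GENCODE M21 and sequences from RefSeq GRCm38.p6, with distances taken from the nearest region edge. A gene's regions overlap its body or 50 kb to each side. Fits were tested on simulated counts.

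Named items were Pdcd1, Spry2 and Arpp21, the 10 loci with most calls in each direction, the 5 calls of smallest adjusted p, up to 4 genes in each list and 5 regions at 0 in one genotype. Sgip1, Mir21a, Themis and neighbouring genes are named as annotation only. The comparison, members and lists were chosen with earlier results of these data known. The plan asked for lower Arpp21 regions, and its higher regions were counted after the data were seen, as was the count of subset differences among called regions. Alternatives were quantile normalization with voom and voom alone (limma 3.58.1), DESeq2 1.42.0, library totals, a filter at the lower quartile (36.2 insertions), the 4 iNKT1 libraries alone, a replicate block, thinning, GC trend removal over 20 bins, other thresholds and the omission of each iNKT1 library, where the single library left was taken to have the spread of the other groups. Replicate numbers did not pair the libraries (correlation of deviations -0.00218).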

Additional observations from a re-analysis of the deposited data

Results flagged for a closer look

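At 4 leading loci the genotype change of the strongest region differed between the subsets in a direct test, as the change in iNKT2 minus that in iNKT1. The difference was -3.02 at the Tmtc2 promoter, -3.90 at the Plxna1 locus, -2.65 at Nrp2 and -2.63 in Ptprk, on the log2 scale (edgeR adjusted p 5.4e-04, 4.8e-03, 8.8e-04 and 3.9e-04). In iNKT1 each of these regions rose in SKG, whereas in iNKT2 the change was 1.51 at Tmtc2, 0.25 at Plxna1, -0.65 at Nrp2 and below 0 in Ptprk. At all 4 the BALB/c iNKT1 libraries were lower than the BALB/c iNKT2 libraries. The regions had been chosen for their change in iNKT1, which is a part of the difference. Groups of 2 and 3 libraries were too small for a test of single outlying samples.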

How the results depend on the processing

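Among recomputed counts 104 stayed within 1.5 times the reported value and 86 did not. For the lead regions of the 20 named loci, 286 of 300 recomputed values kept their direction and side of the limit, 14 kept only the direction and none reversed. These 14 were at Nrp2, Il10, Lrrn2, Vmp1, Plxna1 and Arpp21.

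Under quantile normalization there were 138 higher and 129 lower regions, 2 lower and 11 higher loci, 2 Pdcd1 regions, 2 higher Arpp21 regions, 58 regions lower in both subsets, 12 called at listed genes and 14 called regions that differed between subsets. Voom without it gave 276 lower regions, 6 lower loci, 2 at Arpp21, 103 lower in both subsets, 25 at listed genes and 29 differing between subsets. DESeq2 gave 191 such differences. With only the 4 iNKT1 libraries in the fit there were 1088 lower regions, 69 lower loci and 70 at listed genes. The replicate block gave 47 lower loci and 141 differences between subsets and moved no other count by over 1.5 times, but the numbers do not pair the libraries. An adjusted p of 0.05 and 2-fold gave 1271 higher and 2757 lower regions, 227 lower and 80 higher loci, 12 at Pdcd1, 12 at Spry2, 1348 lower and 250 higher in both subsets, 184 at listed genes and 998 differences. A test against a 2-fold change gave 87 higher and 192 lower regions, 6 lower and 5 higher loci, 3 at Pdcd1, 3 at Spry2, 1 at Arpp21, 97 lower and 24 higher in both subsets, 12 at listed genes and 7 differences. Loci of at least 2 calls numbered 94 lower and 41 higher, and of at least 4 calls 15 and 11. Assignment by nearest start gave Spry2 10 regions and, among the lists, 7 lower Notch regions, 2 lower iNKT2, 0 lower iNKT1, 0 lower myeloid, 2 higher iNKT17 and 2 higher MAP kinase feedback regions.

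Omission of 1 iNKT1 library gave 89 to 131 higher and 152 to 357 lower regions, 4 to 12 lower and 6 to 8 higher loci, 2 to 5 Pdcd1 regions, 2 to 5 Spry2 regions, 0 to 3 higher Arpp21 regions, 79 to 166 lower and 22 to 28 higher in both subsets, 12 to 23 at listed genes (44 as reported) and 14 to 31 differences between subsets (89 as reported). The cause of these shifts was not tested. The median region held 41 insertions in the shallowest iNKT1 library, and each group had 2 libraries, which limits the precision.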
